A study of Mus musculus with 8 samples.

Results

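Retinoic acid is made from vitamin A inside the embryo, and 9 of the genes that make, bind or sense it were followed in the E18.5 hearts of mouse embryos, WT or SIRT1 KO. The genes encode the retinol dehydrogenase Rdh10, the retinaldehyde dehydrogenases Aldh1a1, Aldh1a2 and Aldh1a3, the receptors Rara, Rarb and Rarg, and the binding proteins Crabp1 and Crabp2. They were chosen by name, and every probe whose accession mapped to one of them was kept, which gave 12 of the 41174 probes and 9 of the 19096 genes named on the array. Whole-heart RNA was hybridised to 1-color Agilent mouse genome arrays, with 1 array for each of 4 WT and 4 SIRT1 KO hearts. All embryos were C57BL/6 per the labels (C57BL/6J per the methods) and came from mice on a chow diet with no special treatment. Per the study's methods the knockout was a whole-body germ-line deletion, embryos came from crosses of heterozygous parents, and both sexes were used. The deletion was thus not limited to heart cells, and in whole-heart RNA fewer cells of a type and less RNA per cell cannot be told apart.

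Retinol is first oxidised to retinaldehyde, mainly by RDH10 in the embryo, and retinaldehyde is then oxidised irreversibly to retinoic acid by the ALDH1A enzymes. Retinoic acid binds RAR proteins, which sit on DNA as heterodimers with RXR proteins, usually at a direct repeat of a short half-site, and turn repression of a target gene into activation. CRABP2 carries retinoic acid to the receptors, CRABP1 is linked to its breakdown, and the CYP26 enzymes degrade it. In the heart, retinoic acid patterns the inflow region early, and later the epicardium, the outer cell layer, is a site of Aldh1a2 expression and retinoic acid synthesis.

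Signals are given as log2 values after subtracting each array's 75th percentile, so that a level of 0 is the 75th percentile of that array's probes. Levels of different probes depend on the probe and are not set against each other. Per array, between 59.5% and 64.9% of the 41174 probes were well above background, and no probe was saturated. All WT arrays were on 1 slide scanned on 1 day and all SIRT1 KO arrays were on another slide scanned on another day, so genotype, slide and scan day cannot be told apart in any comparison here. The probes for Sirt1 itself did not fall together: one had a higher signal in the hearts labelled SIRT1 KO (limma log2 fold change 0.54, adjusted p = 0.0323, but 0.0865 by analysis of variance and 0.0645 with the replicate number as a block) and the other did not pass the test (-0.11, adjusted p = 0.589). Which part of the transcript they read was not known here, so they do not check the genotype, and the group is called the hearts labelled SIRT1 KO. The defining cardiomyocyte markers were present, with all 10 well above background on all 8 arrays.

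Transcripts of all 9 retinoic acid genes were detected in at least some hearts, and none passed the test between genotypes. Of the 12 probes, 8 were well above background on all 8 arrays, and 11 passed the filter of at least 4 arrays. None of these 11 was past an adjusted p of 0.05 in limma, against 4.88% of all 25616 probes tested (3.97% had the higher mean in the hearts labelled SIRT1 KO and 0.91% the lower one, a split that median scaling turned to 680 higher and 1104 lower probes and raw signals to 637 and 5710). At an unadjusted p under 0.05 there was 1, Aldh1a2, against 21.5% of all probes, and an analysis of variance gave the same counts of 0 and 1, against 2.13% and 20.1% of all probes. In the hearts labelled SIRT1 KO, 5 of the 11 probes had a higher mean and 6 a lower one. Taking the brightest probe of each gene, the median log2 fold change was -0.01 for the 9 genes and -0.01 for all 13594 tested genes.

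**Figure D1:**
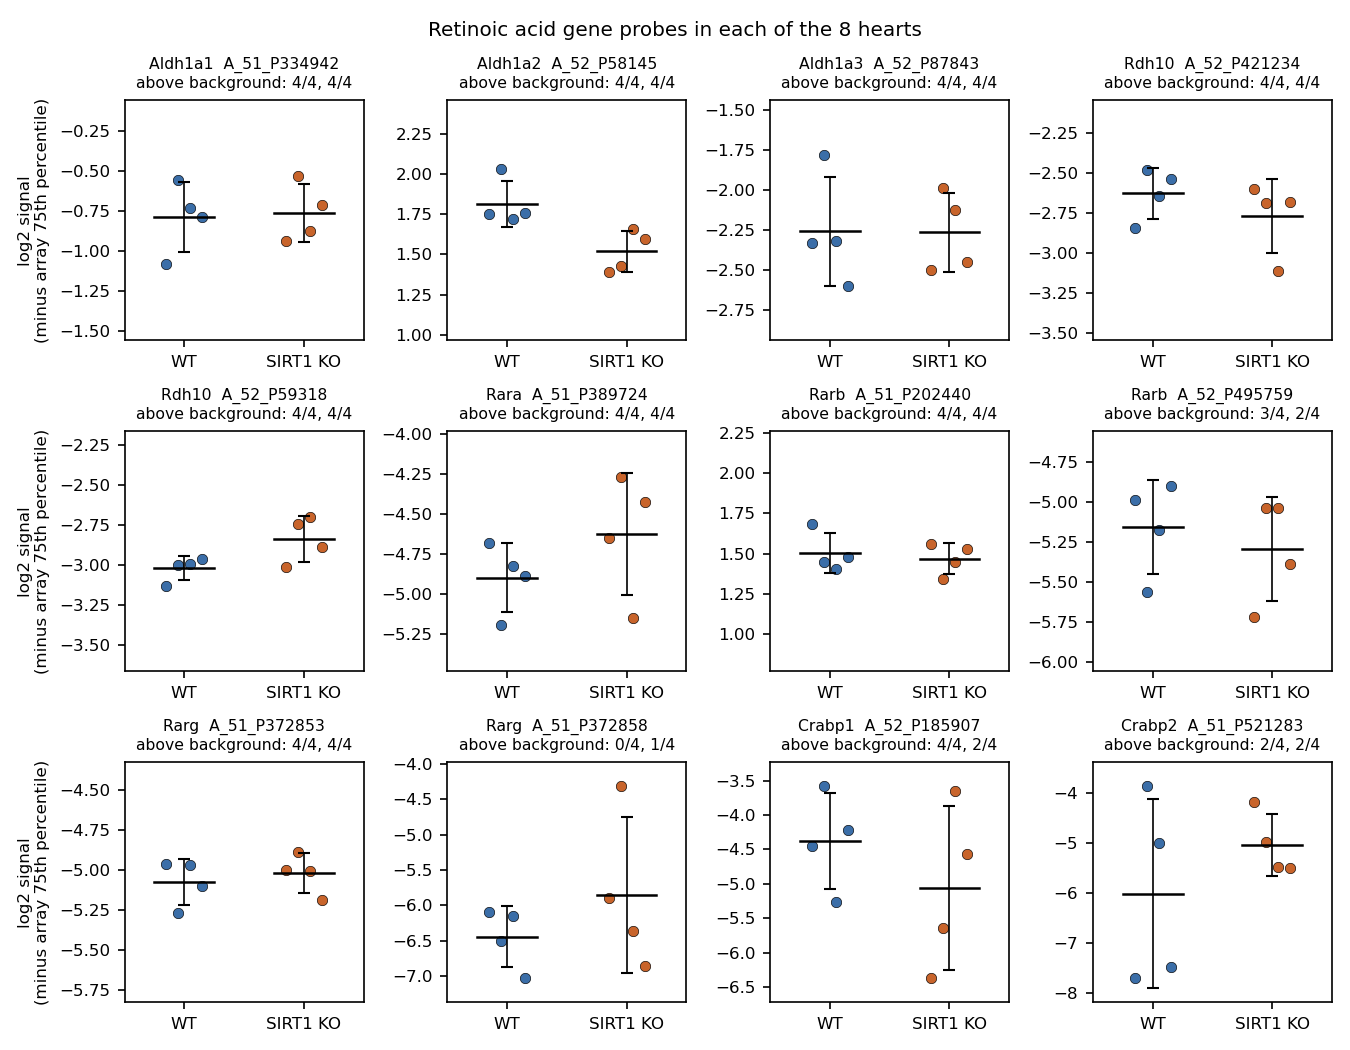
Log2 signal minus the array's 75th percentile (y axis, a different range in each panel) of the 12 probes in 4 WT hearts (blue) and 4 hearts labelled SIRT1 KO (orange). Each point is 1 heart, the horizontal line is the mean and the bar is the SD, and the panel title gives the number of arrays of each genotype on which the probe was well above background. The 4 WT points of Aldh1a2 lie above its 4 orange points, and in every other panel the genotypes overlap.

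Rdh10, the enzyme of the first oxidation step, was measured by 2 probes that were well above background in every heart. On probe A_52_P421234 its level was -2.84, -2.48, -2.64 and -2.54 in WT replicates 1 to 4 and -2.60, -2.68, -3.11 and -2.68 in SIRT1 KO replicates 1 to 4. On probe A_52_P59318 it was -3.13, -3.00, -3.00 and -2.96 in WT and -3.02, -2.74, -2.70 and -2.89 in hearts labelled SIRT1 KO. The genotypes overlapped on both probes, and the difference had opposite signs: -0.14 (95% confidence interval -0.44 to 0.15, adjusted p = 0.553 from limma) on the first and 0.19 (-0.02 to 0.39, adjusted p = 0.268) on the second. SIRT1 KO replicate 3 was the lowest heart on one probe and the highest on the other. The gap between the probes differed between genotypes by -0.33 on the log2 scale, with a p of 0.0857 in a two-sided exact permutation test over the 8 hearts, whose smallest possible p is 0.0286. No direction is therefore given for Rdh10.

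Aldh1a2, the main retinoic acid synthesising enzyme of the embryo, was the member with the clearest separation. Its level was 1.75, 2.03, 1.72 and 1.76 in WT replicates 1 to 4, and 1.39, 1.43, 1.66 and 1.60 in SIRT1 KO replicates 1 to 4. All 4 hearts labelled SIRT1 KO were below all 4 WT hearts, the closest being SIRT1 KO replicate 3 at 1.66 and WT replicate 3 at 1.72. The means were 1.82 ± 0.15 (SD, n = 4) and 1.52 ± 0.13 (SD, n = 4), a log2 fold change of -0.30 with an SE of 0.10. As a ratio this is 0.814 of the WT signal, with a 95% confidence interval of 0.697 to 0.951. The limma adjusted p over all probes was 0.133 and its unadjusted p was 0.0152, so the difference did not pass the test, and the exact permutation p was 0.0286, the smallest the 4 against 4 design can give. Probes with every heart labelled SIRT1 KO below every WT heart made up 5.09% of the 25535 tested probes with a value on every array, and 13.7% did not overlap in one direction or the other.

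The size of the Aldh1a2 difference depended on how arrays were put on 1 scale. It was lower in the hearts labelled SIRT1 KO in all 17 alternatives run, by between 0.22 and 0.52 on the log2 scale. It was past the threshold in 1 of them, the raw signals with no scaling (-0.52, adjusted p = 0.0155 from limma). In that setting the median of all probes was itself shifted by -0.21, and with median scaling Aldh1a2 was at -0.42 (adjusted p = 0.0517) beside a median of all probes of -0.12. Leaving out 1 heart at a time gave values from -0.34, without SIRT1 KO replicate 3, to -0.22, without WT replicate 2, and none of these 8 fits passed the test.

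**Figure D2:**
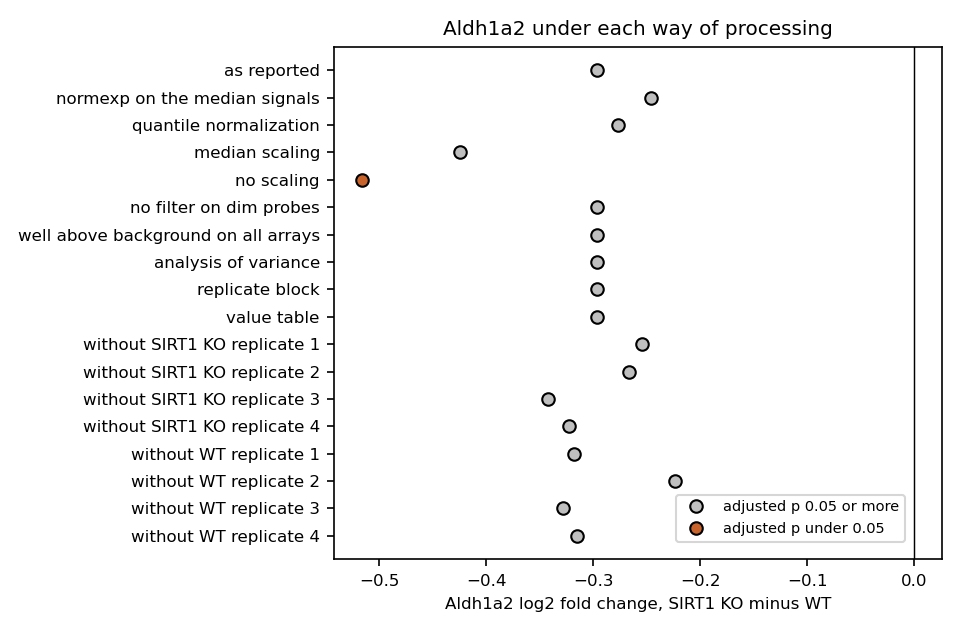
Log2 fold change of Aldh1a2, SIRT1 KO minus WT (x axis), as reported and under each of 17 alternative ways of processing or of leaving out 1 heart (y axis). All points lie below 0, and the 1 orange point, raw signals without scaling at -0.52, is past an adjusted p of 0.05 in limma.

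The other retinaldehyde dehydrogenases showed no separation. Aldh1a1, which in other tissues supplies retinoic acid to the eye and the liver, was at -1.08, -0.55, -0.73 and -0.79 in WT and -0.93, -0.53, -0.87 and -0.71 in hearts labelled SIRT1 KO, and the groups overlapped. Its log2 fold change was 0.02 (95% confidence interval -0.27 to 0.32, adjusted p = 0.935 from limma). Aldh1a3, known from the developing eye and nasal region, was at -2.33, -1.78, -2.32 and -2.60 in WT and -2.50, -1.99, -2.13 and -2.45 in hearts labelled SIRT1 KO, a difference of -0.01 (-0.42 to 0.41, adjusted p = 0.986). In both genes replicate 2 was the highest heart of its genotype. The sign of these small differences changed with the heart left out, and for Aldh1a1 also with the scaling, so they carry no direction. The interval of Aldh1a3 reaches past the difference measured for Aldh1a2, while that of Aldh1a1 stops just short of it on the lower side.

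**Figure D3:**
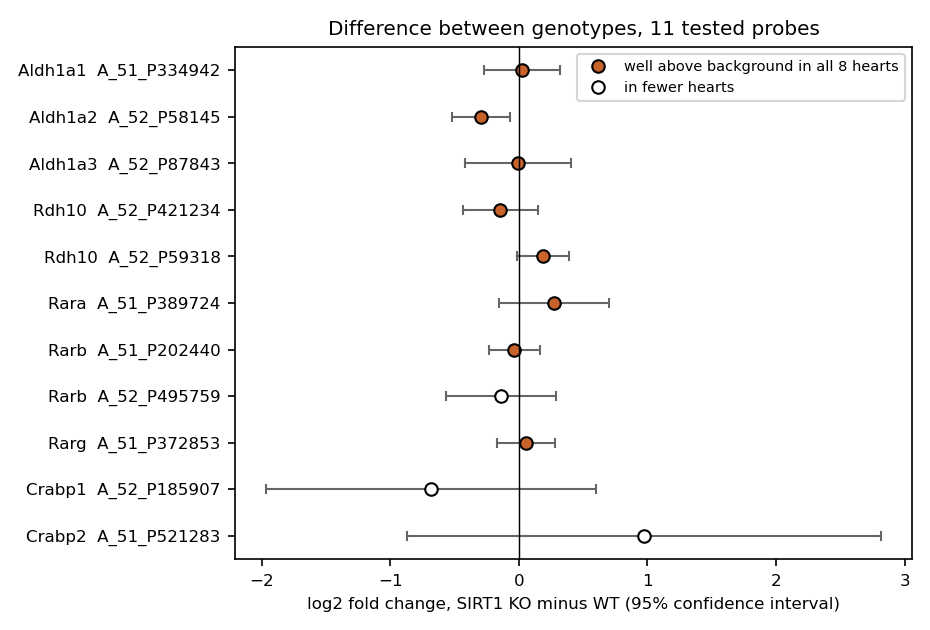
Log2 fold change, SIRT1 KO minus WT (x axis), with its 95% confidence interval from limma for the 11 tested probes of the 9 genes (y axis). Filled points were well above background in all 8 hearts and open points in fewer. The interval of Aldh1a2, -0.52 to -0.07, is the only one that does not reach 0, and those of Crabp1 and Crabp2 are the widest.

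The receptors were measured with 5 probes. Rarb, the receptor gene that retinoic acid itself induces, had 10 spots of probe A_51_P202440 on each array, which were averaged. Its level was 1.69, 1.44, 1.40 and 1.48 in WT replicates 1 to 4 and 1.56, 1.34, 1.45 and 1.53 in SIRT1 KO replicates 1 to 4. The genotypes overlapped almost completely. The log2 fold change was -0.03 (95% confidence interval -0.23 to 0.16, adjusted p = 0.855 from limma), so the ratio of the SIRT1 KO to the WT signal lay between 0.851 and 1.12 at that confidence. A second Rarb probe, A_52_P495759, was dim and was well above background on 3 WT and 2 SIRT1 KO arrays. It was also without a difference past the test (-0.14, adjusted p = 0.71 from limma), with levels of -5.56 to -4.90 in WT and -5.72 to -5.04 in hearts labelled SIRT1 KO.

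Rara, the broadly expressed receptor, was at -4.68, -5.19, -4.83 and -4.89 in WT and -4.65, -4.27, -5.15 and -4.42 in hearts labelled SIRT1 KO. Here 3 of the 4 hearts labelled SIRT1 KO were above every WT heart and replicate 3 was not, and the log2 fold change was 0.27 (95% confidence interval -0.16 to 0.70, adjusted p = 0.438 from limma). Dropping SIRT1 KO replicate 2 made it 0.15, dropping SIRT1 KO replicate 3 made it 0.45 and dropping WT replicate 2 made it 0.17, while quantile normalization gave 0.075, and none of these passed. Rarg, best known from skin and cartilage, was at -4.96, -5.27, -4.96 and -5.10 in WT and between -5.18 and -4.88 in hearts labelled SIRT1 KO on probe A_51_P372853, a difference of 0.06 (-0.17 to 0.28, adjusted p = 0.781). The sign for Rarg was turned by quantile normalization and by median scaling, to -0.16 and -0.07, and by leaving the signals unscaled. The other Rarg probe, A_51_P372858, was well above background only on the array of SIRT1 KO replicate 2, at -4.32, and was not tested.

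Rarb expression is a common reporter of retinoic acid signaling because its promoter carries a retinoic acid response element. The promoters were searched for that element as a direct repeat of any of the half-sites AGGTCA and AGTTCA, or their forms with a first G, GGGTCA and GGTTCA, with 5 bases between, on both strands, in windows from 250 bases before to 50 after each start site in RefSeq. It was found in 32 of 32851 windows, or 0.0974%. Among the 11 windows listed for 6 of the 9 genes it was in 1, that of Rarb, and among the 85 windows of the other retinoid pathway genes it was in 1, that of Cyp26a1, a retinoic acid degrading enzyme. With 2 bases between, 0.268% of all windows had a match and no window of the 9 genes or the pathway did, and with 1 base between, 0.222% had a match and among them only Bco1 belonged to the pathway. The bases before the start site in both promoters with the 5-base spacing are shown, 5′ to 3′ on the strand of the gene, because the transcripts of these genes are read beside each other. Capitals mark the repeat, which lies on the gene's strand in Rarb and on the opposite strand in Cyp26a1. The Rarb stretch is chr14:16575477-16575726 on the minus strand and the Cyp26a1 stretch chr19:37697558-37697807 on the plus strand of GRCm38.p6.
Rarb: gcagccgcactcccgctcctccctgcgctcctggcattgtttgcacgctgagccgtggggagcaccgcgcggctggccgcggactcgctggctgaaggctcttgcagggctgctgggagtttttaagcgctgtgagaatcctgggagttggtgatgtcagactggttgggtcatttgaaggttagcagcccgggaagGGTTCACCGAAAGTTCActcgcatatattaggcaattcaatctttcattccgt
Cyp26a1: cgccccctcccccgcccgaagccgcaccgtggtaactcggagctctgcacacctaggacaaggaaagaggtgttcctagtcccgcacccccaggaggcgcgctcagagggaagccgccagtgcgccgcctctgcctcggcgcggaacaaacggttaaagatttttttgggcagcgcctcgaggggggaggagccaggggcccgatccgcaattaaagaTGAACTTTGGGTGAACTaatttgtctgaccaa

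In Rarb, 36 bases separate the repeat from the start site, and in Cyp26a1, 15 bases. The transcripts of both genes were measured in all hearts. Cyp26a1 was at -4.11, -4.27, -4.89 and -4.18 in WT and -4.10, -3.62, -4.33 and -3.99 in hearts labelled SIRT1 KO, and the groups overlapped. Its limma log2 fold change of 0.36 (adjusted p = 0.335) and that of Rarb, -0.03, were both short of the threshold. A match of letters in a window is a description of the sequence and says nothing of binding in these hearts.

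The binding proteins were not well above background in every heart. Crabp1 was well above background on 4 WT and 2 SIRT1 KO arrays, at -4.45, -3.58, -5.26 and -4.21 in WT and -6.37, -5.64, -3.66 and -4.57 in hearts labelled SIRT1 KO. Hearts labelled SIRT1 KO were thus both the lowest and near the highest of the 8. The log2 fold change was -0.68 with an SE of 0.57 (adjusted p = 0.52 from limma), and dropping single hearts moved it between -1.15, when SIRT1 KO replicate 3 was dropped, and -0.25, when SIRT1 KO replicate 1 was. Crabp2 was well above background on 2 arrays of each genotype, at -7.70, -3.86, -4.98 and -7.48 in WT and -4.18, -4.97, -5.48 and -5.49 in hearts labelled SIRT1 KO. Its difference of 0.98 had an SE of 0.81 (adjusted p = 0.523) and ran from 0.41 (without WT replicate 1) to 1.69 (without WT replicate 2), and the WT hearts alone spanned more than the distance between the group means. With this spread between hearts neither a rise nor a fall of Crabp1 or Crabp2 passed the test, which does not show that there was none. CRABP2 is a known substrate of SIRT1 deacetylation in mouse embryonic stem cells, which is a change of the protein that arrays of transcripts do not measure.

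Since Aldh1a2 is an epicardial gene, markers of that layer were read beside it. Of 14 epicardial and mesothelial markers, 13 were on the array and 12 were tested. None was past the threshold, 11 of 12 had a lower mean in the hearts labelled SIRT1 KO, and the median log2 fold change was -0.48, against -0.01 for all tested genes, of which 51.6% had a lower mean. Krt19, a keratin of mesothelial cells, was at -0.76 (adjusted p = 0.0679 from limma), Lrrn4 at -0.61 (adjusted p = 0.0805) and Gpm6a at -0.52 (adjusted p = 0.0893). Wt1, the transcription factor that defines the epicardium, was at -0.20 (adjusted p = 0.487), Tbx18 at -0.07 and Tcf21 at 0.01. The only marker on the array that was never well above background was Bnc2. The number of epicardial markers past the threshold was 4 with no scaling, 4 with normexp background correction and 3 with median scaling, all lower in the hearts labelled SIRT1 KO. In these settings 5710, 445 and 1104 of all 25616 probes passed as lower, against 233 as reported, so the general count rose as well. With the replicate number as a block 2 of the markers passed, Krt19 and Lrrn4, where 236 of all probes passed as lower.

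The summed epicardial signal, in units of the array's 75th percentile, was 22.3, 26.9, 22.4 and 24.3 in WT replicates 1 to 4 and 18.8, 22.4, 16.5 and 14.0 in SIRT1 KO replicates 1 to 4. Among WT hearts, replicate 2 was highest both in this sum and in Aldh1a2. Among hearts labelled SIRT1 KO the order was different: replicate 2 had the highest sum, within the range of the WT hearts, and an Aldh1a2 level of 1.43, while replicate 4 had the lowest sum and an Aldh1a2 level of 1.60. The markers did not all follow the sum. In SIRT1 KO replicate 4, Wt1 (0.34) and Tcf21 (1.29) were above every WT heart, and each other tested marker was below every WT heart. The part of the epicardial markers in the Aldh1a2 difference was not tested. Markers of cardiac fibroblasts had a median of 0.02, cardiomyocyte markers of 0.11 and endothelial markers of -0.13, with none past the threshold in these 3 lists. All 8 endothelial markers had the lower mean in the hearts labelled SIRT1 KO. Of the Schwann cell and neuron markers 3 were tested, all with the higher mean there, and Sox10 passed (0.80, adjusted p = 0.0199 from limma) but not in the analysis of variance (adjusted p = 0.0797).

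**Figure D4:**
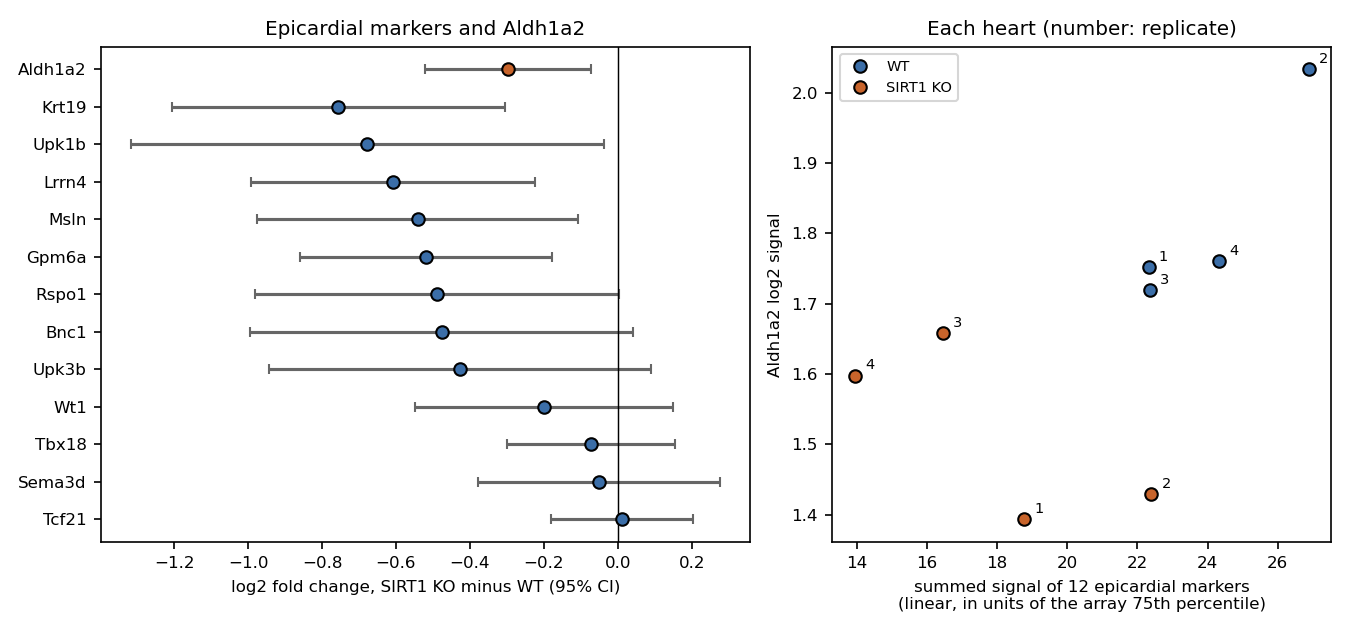
Left, log2 fold change, SIRT1 KO minus WT, with its 95% confidence interval for the 12 tested epicardial markers (blue) and Aldh1a2 (orange). Right, Aldh1a2 log2 signal (y axis) against the summed linear signal of the 12 markers (x axis) in each heart, with the replicate number beside each point. The WT hearts lie at 22.3 to 26.9 on the x axis and the hearts labelled SIRT1 KO at 14.0 to 22.4. Msln, the marker with the brightest signal, weighs most in this sum.

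The wider retinoid pathway was then counted, as 94 further genes in 5 lists. Of these 89 were on the array and 62 were tested. Past the threshold were 2, or 3.23%, against 4.58% of all 13594 genes tested (3.69% higher and 0.897% lower). The transporter gene Stra6l was higher in the hearts labelled SIRT1 KO and the retinol-binding protein Rbp7 was lower. Stra6l was well above background on 1 of 4 WT and 4 of 4 SIRT1 KO arrays. It thus entered the test through the hearts where it was higher. When signal on all arrays was required, Stra6l was not tested and 1 pathway gene passed. The median log2 fold change of the 62 was -0.02, with 27 higher and 35 lower means.

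Among 10 tested genes of retinoid supply and storage, 1 rose, 1 fell and 8 did not pass. Rbp7, which binds retinol inside cells and is known from fat and endothelium, was at 3.52, 3.66, 3.43 and 3.39 in WT and 3.03, 2.82, 3.26 and 3.07 in hearts labelled SIRT1 KO on its brighter probe. No heart labelled SIRT1 KO reached a WT heart, which held for 5.59% of all genes in this direction, and Rbp7 fell by 0.45 on the log2 scale (SE 0.11, adjusted p = 0.0458 from limma). Its other probe was at 0.98, 0.98, 0.90 and 0.84 against 0.56, 0.20, 0.67 and 0.39, a fold change of -0.47 (adjusted p = 0.041), so both probes separated the genotypes. The summed endothelial signal, in units of the 75th percentile, was 40.1 to 47.6 in WT and 35.4 to 42.3 in hearts labelled SIRT1 KO, and its part in the Rbp7 difference was not tested. The call on the brighter probe was lost in 10 of 17 alternatives, in 7 of them by leaving out 1 heart, with the same direction in all 17. Leaving out any heart other than SIRT1 KO replicate 3 ended it, with limma adjusted p values up to 0.119. It was also lost in the analysis of variance (adjusted p = 0.0994) and with the replicate number as a block (adjusted p = 0.0961 from limma). The other probe lost its call in both as well (adjusted p = 0.0916 and 0.0649).

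Stra6l, a relative of the retinol-binding protein receptor, was dim and was well above background on 1 of 4 WT and 4 of 4 SIRT1 KO arrays. It was at -5.64, -5.72, -5.78 and -5.23 in WT and -4.01, -4.49, -3.72 and -4.27 in hearts labelled SIRT1 KO, with a clear gap between the groups. The limma fit gave a rise of 1.47 on the log2 scale (SE 0.18, adjusted p = 0.00338), and 0.61 to 1.59 in the 16 alternatives that kept the probe, all past the threshold. The probe entered the test through the hearts labelled SIRT1 KO, where it was higher. With 3 WT levels not well above background the size of the rise is uncertain, and the p-values are no independent support for it. It was not tested when signal on all arrays was required, and its other probe did not rise well above background in any heart. Stra6, the receptor itself, was at 1.35, 0.83, 0.19 and 0.90 in WT and 1.54, 2.95, 1.80 and 1.15 in hearts labelled SIRT1 KO, a difference of 1.04 (adjusted p = 0.157) that did not pass the test.

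Rbp4, the retinol carrier of blood, made mainly in liver, had a difference of 1.12 (adjusted p = 0.299 from limma). Its level in the hearts labelled SIRT1 KO was 1.88, -0.10, -1.06 and 0.98, and the replicates with high Rbp4 were those with high liver markers: the summed liver signal, in units of the 75th percentile, was 118, 18.7, 13.3 and 62.1 there and 11.3 to 27.6 in WT hearts. All 8 tested liver markers, such as Alb and Afp, had a higher mean in the hearts labelled SIRT1 KO and none passed the test. Whether liver RNA had a part in Rbp4 was not tested. Lrat, which stores retinol as esters, did not rise well above background in any heart.

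The 14 tested retinol and retinaldehyde dehydrogenases and reductases had no member past the threshold and a median of 0.10. Dhrs3, which turns retinaldehyde back to retinol and is induced by retinoic acid, was at -0.16 (adjusted p = 0.356 from limma). Rdh9 was at 0.65 (adjusted p = 0.0791) and Rdh12 at 0.40 (adjusted p = 0.0859). Rdh9 was well above background on only 2 of 4 WT arrays and on 4 of 4 SIRT1 KO arrays, so the size of its difference is uncertain. The 3 tested genes of degradation had no call either, with Cyp26b1 at 0.23 (adjusted p = 0.552).

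The receptor partners and cofactors, 16 tested, had no member past the threshold and a median of 0.03. Trim24, a coregulator of the receptors, had the lowest adjusted p of the list: all 4 hearts labelled SIRT1 KO, at 2.70 to 2.83, were above the WT hearts, at 2.46 to 2.56. Its difference of 0.25 had an adjusted p of 0.0679 in limma and 0.117 with the replicate number as a block, and passed in the analysis of variance (adjusted p = 0.0339). Of the 16 genes, 3 separated the genotypes in this direction and 1 in the other, and 13.7% of all probes separated them in either direction. Rxra, the main partner in heart muscle, was at 0.30 (adjusted p = 0.106 from limma) on its brighter probe and -0.10 (adjusted p = 0.825) on the other, Rxrb at -0.05 (adjusted p = 0.713) and Rxrg, the muscle and brain form, at -0.36 (adjusted p = 0.0798). The corepressor Ncor1 was at -0.12 (adjusted p = 0.403) on its brightest probe and at -0.14, 0.07 and -0.06 on the others. Nrip1, a corepressor that the hormone-bound receptors recruit, was at 0.15 (adjusted p = 0.377). No probe was matched to Fabp5, which carries retinoic acid to another receptor.

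Of the 24 genes tested here that are known as retinoic acid targets, none passed, and the median was -0.04. By their brightest probes, 4 of them had an unadjusted p under 0.05 in limma. The share at hand for this, 21.5%, is over all probes and not over genes by their brightest probe. Hoxd4, a patterning gene, had the lowest value of the list, at -0.63 (adjusted p = 0.176), and was past the threshold with the replicate number as a block (adjusted p = 0.0187). The targets with a part in the heart were not past the threshold. The inflow and septum factor Tbx5 was at -0.15 (adjusted p = 0.543 from limma) and the atrial factor Nr2f2 at -0.02 (adjusted p = 0.958). The homeobox gene Meis2 was at 0.11 (adjusted p = 0.482) on its brighter probe and -0.09 (adjusted p = 0.636) on the other. The transglutaminase Tgm2, strongly induced by retinoic acid in many cells, was at -0.12 (adjusted p = 0.542 from limma) on its brightest probe. Its other probes were at -0.41 (adjusted p = 0.121) and -0.28 (adjusted p = 0.256), and none passed. Nr2f1 and the patterning gene Hoxa5 did not rise well above background in any heart.

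**Figure D5:**
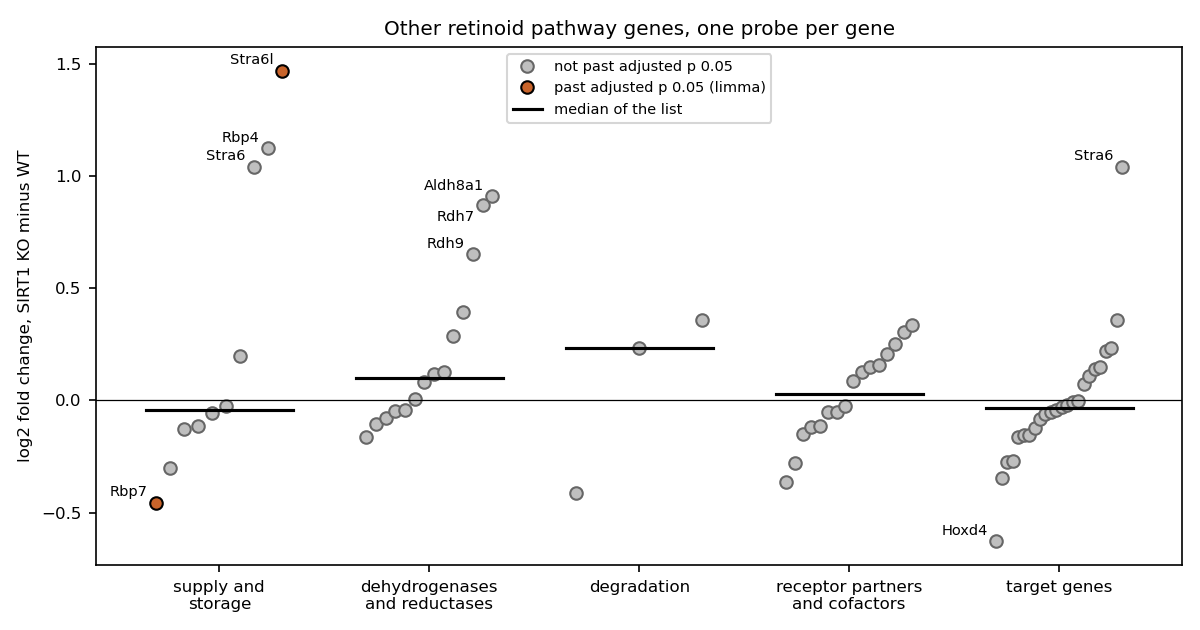
Log2 fold change, SIRT1 KO minus WT (y axis), of the tested genes of 5 retinoid pathway lists (x axis), each gene by its brightest probe, with black lines at the list medians. Orange points, Stra6l and Rbp7, were past an adjusted p of 0.05 in limma, and a gene in more than 1 list is drawn in each.

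The genes whose profile over the 8 hearts was most like that of Aldh1a2 were found among 13535 genes by the root mean square of the difference between centered log2 profiles. They were Snhg5 at 0.0492, Srsf10 at 0.0532 and Rsl24d1 at 0.0538, against a median of 0.235 over all genes. These are a small nucleolar RNA host gene, a splicing factor and a ribosome biogenesis gene, and none is a retinoid gene of the lists. For Rarb, which varied less between hearts, the nearest were Cers2 at 0.0189, Trub1 at 0.0272 and AW209491 at 0.0319, against a median of 0.174. These likenesses rest on 8 hearts of 2 genotypes and are descriptions.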

How the data were processed

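The deposited arrays hold Cy3 intensity values per spot: per the file headers the authors extracted them with Agilent Feature Extraction 12.0.0.7, which subtracts the background to give the processed signal, and the deposited value table repeats that signal. Without control spots and outlier spots, the spots of a probe were averaged, and log2 processed signals were centered on each array's 75th percentile. Probes were named through accessions in RefSeq GRCm38.p6 (28223 of 41174 probes, 68.5%). The 25616 probes that 4 or more of the 8 arrays showed well above background were tested with limma 3.58.1 in R 4.3.3 over 4 WT and 4 SIRT1 KO hearts without covariates, with Benjamini-Hochberg adjustment and a threshold of 0.05. A gene in a list was read from its brightest probe on average. A few genes of the pathway lists are not reported here, and the counts over these lists leave them out. The fit was tested on simulated data. Single values were also given a two-sided exact permutation test. Replicates were separate samples per the labels, with no source for litters, so p-values measure the spread between these samples. Precision is limited by how few arrays there are. The genes, lists and tests were chosen with earlier results of these data known. Named were all members, every pathway gene counted here past the threshold, a few further genes of each role and the 3 nearest profiles. Rdh9, Rdh12, Trim24, Hoxd4, Sox10, Tubb3, Krt19, Lrrn4 and Gpm6a were chosen after their values were seen. Alternatives were other scalings, background correction, filters, the analysis of variance of the study's methods, the replicate block and leaving out each heart.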

Additional observations from a re-analysis of the deposited data

Results flagged for a closer look

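In 4 of 56 groups of 4 hearts examined, 1 heart stood apart from the other 3 of its genotype by Dixon's gap test, which chance does in about 1 group in 20. Aldh1a2 in WT replicate 2 was 2.03, and the next WT heart was 1.76. Rdh10 on probe A_52_P421234 was -3.11 in SIRT1 KO replicate 3, and the next was -2.68. Meis2 was 2.72 in WT replicate 4, with 2.61 the next. Rxrg was -1.50 in SIRT1 KO replicate 3, with -1.76 the next. All values are log2 signals minus the array's 75th percentile.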

How the results depend on the processing

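Of 217 recomputed values of 13 single probes, 187 kept direction and side of the threshold, 10 lost it, 1 gained it and 19 changed sign. Changed signs from scaling or background correction were -0.10 (median scaling) and -0.20 (no scaling) for Aldh1a1, 0.042 (normexp) for Aldh1a3, 0.028 (normexp) and -0.034 (no scaling) for Rdh10 on probes A_52_P421234 and A_52_P59318, 0.16 (normexp) for Rarb on A_52_P495759, -0.16 (quantile), -0.073 (median scaling) and -0.16 (no scaling) for Rarg and 0.096 (normexp) for Crabp1. With 1 heart left out, values ran from -0.074 to 0.10 for Aldh1a1, -0.12 to 0.15 for Aldh1a3, -0.067 to 0.027 and -0.27 to 0.0021 for the Rarb probes and -0.0095 to 0.11 for Rarg, crossing 0 in each. None of these passed the test in limma in either sign.

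Of all probes 1250 passed, against 2467 with normexp, 6347 without scaling and 546 by analysis of variance, and 657 (without WT 3) to 1825 (without SIRT1 KO 3) with 1 heart left out. Of these calls 81.4% were higher in the hearts labelled SIRT1 KO, falling to 63.9% (quantile), 38.1% (median scaling) and 637 of 6347 (raw signals). No member passed except 1 without scaling, and leaving out a heart left 0 in each case. The members' median of -0.01 became -0.23 without scaling, beside -0.21 for all probes. Pathway genes past the threshold were 2, but 4 with normexp, 4 with median scaling, 15 without scaling, 1 among probes well above background on all arrays (Stra6l was not tested there) and 1 (without any of SIRT1 KO 1, 2 and 4 or WT 2, 3 and 4) to 5 (without SIRT1 KO 3) with 1 heart left out. The cause of these shifts was not tested. Normexp was run on median signals, chosen after seeing the data. The planned version on mean signals was not run, as those columns were not in the files used here.

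The genotypes share replicate numbers, and the series description speaks of pairs of hearts without saying what a pair shared. For the arrays the paper itself gives 4 embryos per genotype and names no pairs. Deviations of same-numbered hearts correlated by 0.0562 to 0.207, with 3 of 4 over 0.1, short of the criterion that every pair be over 0.1, so the reported fits have no block. All 8 arrays correlated best with their own number, which is a hint of pairing, so the blocked values stand beside them. With the replicate number as a block 1185 probes and 0 members passed, Aldh1a2 had an adjusted p of 0.17 in limma, Rbp7 lost its call (adjusted p = 0.0961) and Krt19 (adjusted p = 0.0316), Lrrn4 (0.0357) and Hoxd4 (0.0187) passed, these being lower in the hearts labelled SIRT1 KO, as did Tubb3 (0.0362, higher) of the Schwann cell and neuron markers. Crabp1, Crabp2, the dim Rarb probe, Stra6l and Rdh9 were well above background on only some arrays.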
